A study of Mus musculus with 34 samples.

Results

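The type I interferon-stimulated genes examined here are 37 named mouse genes, picked by gene symbol from the deposited count and RPKM tables, which hold 55385 gene rows in all. They are antiviral effectors, nucleic acid sensors and regulators that type I interferon is known to induce. The Ifit and Oas families and Lgals3bp were left out of the choice. All 37 were among the 17518 genes with enough counts to be tested. None of them lies inside the chromosome 16 segment that is present in an extra copy in Dp16 mice, although Parp9, Dtx3l, Parp14 and Rtp4 lie elsewhere on that chromosome.

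Poly(A) RNA from 34 hippocampi was sequenced, 1 library for each mouse, in 8 groups of 3 to 5 animals aged 6 months. The study asked what the Dp16 segment, the 5xFAD transgenes and inhibition of JAK1 and JAK3 by tofacitinib do to gene expression, alone and together. The 5xFAD-Dp16 mice carried both the segment and the transgenes, with 4 animals on tofacitinib and 3 on sham treatment. The 5xFAD mice carried the transgenes alone, with 5 animals on tofacitinib and 4 on sham. The Dp16 mice carried the segment alone, with 5 animals on tofacitinib and 3 on sham. Wild-type (WT) mice were C57BL/6J, with 5 animals on tofacitinib and 5 on sham. Tofacitinib was given by mouth at 15 mg/kg every day for a month, and sham animals received its vehicle, 0.5% methylcellulose, on the same schedule, so that all animals were gavaged. Females and males were present in every group, 16 and 18 in total, but in unequal parts. On sham there were 2 females and 1 male in 5xFAD-Dp16, 1 and 3 in 5xFAD, 2 and 1 in Dp16, and 2 and 3 in WT. On tofacitinib there were 2 and 2 in 5xFAD-Dp16, 2 and 3 in 5xFAD, 3 and 2 in Dp16, and 2 and 3 in WT. In the 5xFAD line, mutant human amyloid precursor protein and presenilin are expressed in neurons from the Thy1 promoter, and in Dp16 a stretch of mouse chromosome 16 that corresponds to part of human chromosome 21 is duplicated, with its interferon receptor genes. The labels do not give the strain background of these lines, and do not say whether animals of a group shared litters.

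Type I interferons are secreted proteins that signal through a receptor made of the Ifnar1 and Ifnar2 chains. The receptor activates the kinases Jak1 and Tyk2, which phosphorylate transcription factors, and these enter the nucleus with Irf9 to bind a short DNA element in the promoters of the genes they induce. In brain the induced genes are known best from microglia and other glia responding to viruses, nucleic acids or amyloid. Because RNA came from whole tissue, more cells of a type and more RNA per cell cannot be told apart in any of the values that follow.

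The element bound by this complex was looked for as GAAA, any 2 bases and GAAA again, on either strand (TTTC, any 2 bases and TTTC on the other), in RefSeq promoter windows of 300 bases (GRCm38.p6), in which copies may overlap one another. A window was at hand for 28 of the 37 genes, and 11 of these 28 (39.3%) held a match, against 1079 of 27025 RefSeq genes with such a window (3.99%). Among the genes called higher in 5xFAD-Dp16 than in WT sham mice, 5 of 9 with a window held one, and among the others 6 of 19 did. A match describes the letters of the window and is not evidence of binding, and the absence of one says only that these letters do not occur there. The stretches of 90 bases that follow lie before the start of 4 of the genes and overlap no annotated exon. They are shown because they hold the matching letters, in capitals, in genes whose levels the results below turn on, and each is written 5′ to 3′ along the strand of its gene.
Isg15: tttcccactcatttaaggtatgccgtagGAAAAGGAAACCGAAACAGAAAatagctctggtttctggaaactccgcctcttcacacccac
Trim30a: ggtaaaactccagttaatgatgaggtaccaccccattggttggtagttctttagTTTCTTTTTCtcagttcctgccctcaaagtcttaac
Rsad2: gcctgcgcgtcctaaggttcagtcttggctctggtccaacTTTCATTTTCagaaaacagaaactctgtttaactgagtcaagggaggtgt
Bst2: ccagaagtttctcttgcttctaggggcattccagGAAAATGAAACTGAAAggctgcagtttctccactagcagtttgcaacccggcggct
The Isg15 stretch is chr4:156200835-156200924 on the minus strand, with its match nearest the start beginning 66 bases before it. The Trim30a stretch is chr7:104465194-104465283, also on the minus strand, with the match 36 bases before the start. The Rsad2 stretch is chr12:26456523-26456612 on the minus strand, with the match 120 bases before the start. The Bst2 stretch is chr8:71537547-71537636 on the minus strand, with the nearest match 124 bases before the start. In Isg15 and Bst2 the runs in capitals are several overlapping copies.

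Libraries held 14.9 to 21.1 M counts (median 17.8 M), of which the 37 genes together took 0.0191% to 0.0391%. The hippocampal label was checked against marker genes, and 3 libraries were low in hippocampal markers: WT tofacitinib 3, 5xFAD tofacitinib 2 and 5xFAD-Dp16 sham 4. The summed level of 8 hippocampal markers was 266, 441 and 293 CPM (counts per M, scaled between libraries) in these 3 in that order, against a median of 807 CPM over all libraries. The summed level of 5 thalamic markers was 77.5, 1010 and 703 CPM in them, against a median of 75.3 CPM. In the same order, 6 striatal markers summed to 753, 1150 and 144 CPM, against a median of 111 CPM. The sums of 4 neocortical markers were 459, 108 and 78.4 CPM, against a median of 144 CPM. Median fold changes of the whole list, and most counts of called genes, are also given without these 3 libraries. The next lowest library, 5xFAD-Dp16 tofacitinib 1, had 545 CPM of hippocampal and 293 CPM of thalamic markers. It was kept when the 3 were left out. List levels, counts of genes without overlap or with an unadjusted p under 0.05, and results on the CPM scale use all libraries. Of these, list levels, counts without overlap and results on the CPM scale are not adjusted for sex.

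Across the groups the 37 genes stood highest in mice that carried both the segment and the amyloid transgenes. The mean log2 CPM of the list was 2.31 ± 0.18 in 5xFAD-Dp16 tofacitinib mice (SD, n = 4) and 2.66 ± 0.17 in 5xFAD-Dp16 sham mice (n = 3). It was 1.93 ± 0.30 in 5xFAD tofacitinib mice (n = 5) and 2.00 ± 0.09 in 5xFAD sham mice (n = 4). It was 1.80 ± 0.21 in Dp16 tofacitinib mice (n = 5) and 1.90 ± 0.39 in Dp16 sham mice (n = 3). WT mice were lowest, at 1.54 ± 0.19 on tofacitinib and 1.37 ± 0.20 on sham (n = 5 each). The 3 sham animals with both changes, at 2.46, 2.77 and 2.74, lay above every other sham animal. The neighbouring 5xFAD and Dp16 groups overlapped, and the spread among Dp16 sham animals came from animal 1, at 2.35, against 1.61 and 1.75 in the other 2. The list level is a description and was not tested.

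**Figure D1:**
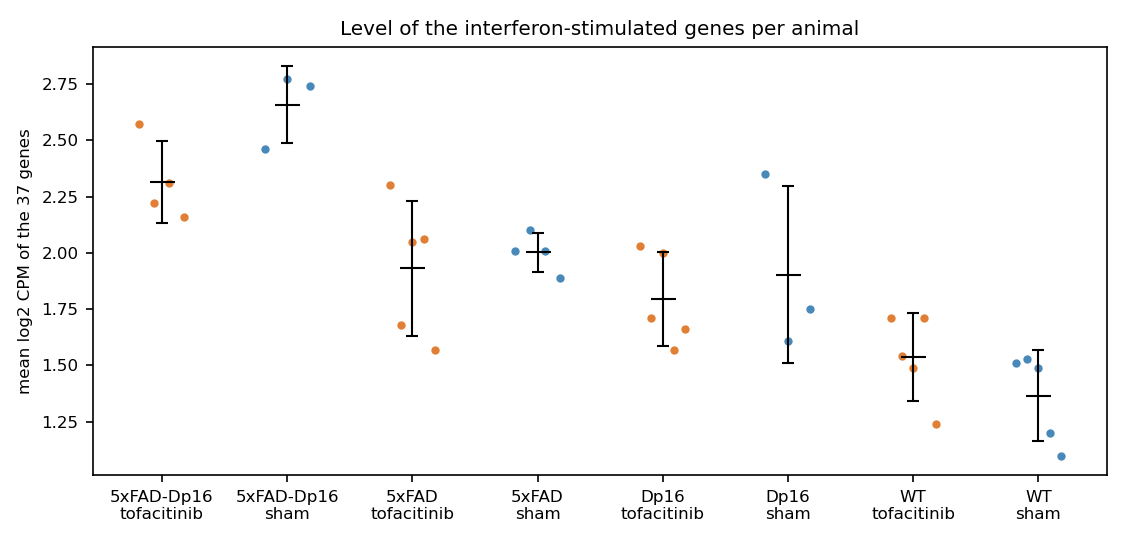
Mean log2 CPM of the 37 interferon-stimulated genes in each animal (points; tofacitinib orange, sham blue), with the mean and SD of each group (bars). The 5xFAD-Dp16 sham animals lie between 2.46 and 2.77, above the 1.10 to 1.53 of the WT sham animals.

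Measured per length of gene, the list spans a wide range. Ifi27, a mitochondrial protein, had the highest mean RPKM over all libraries (27.9), followed by Ifitm3, a membrane protein that blocks virus entry (18.3). The helicase Ddx60 had the lowest (0.0628), with Zbp1, a sensor of left-handed nucleic acid, next (0.242). The 19 genes at or above the median RPKM of 1.51 had a median log2 fold change of 0.89 between 5xFAD-Dp16 and WT sham mice, and 5 were called. The 18 genes below that level had a median log2 fold change of 1.54, and 9 were called.

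Genes of every role were higher in mice with both segment and transgenes than in WT mice. Between 5xFAD-Dp16 and WT sham mice, 14 of the 37 genes rose and none fell at an adjusted p under 0.05 (edgeR quasi-likelihood test, Benjamini-Hochberg adjustment over all genes), where 0.816% of all genes tested were called higher. The fold change was above 1 for all 37 (52.1% of all genes), with a median log2 value of 1.07, against 0.01 over all genes. For 31 of the 37 every 5xFAD-Dp16 sham animal lay above every WT sham animal, as did 4.05% of all genes, and 33 had an unadjusted p under 0.05 with higher levels (9.16% of all genes). The 14 were Isg15, Irf7, Phf11b, Trim30a, Dhx58, Zbp1, Ifi204, Eif2ak2, Trim25, Parp14, Rsad2, Samd9l, Rtp4 and Ifi44. When each of the 8 libraries was left out in turn, 6 of the 14 kept their call every time: Isg15, Irf7, Phf11b, Eif2ak2, Parp14 and Rsad2.

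**Figure D2:**
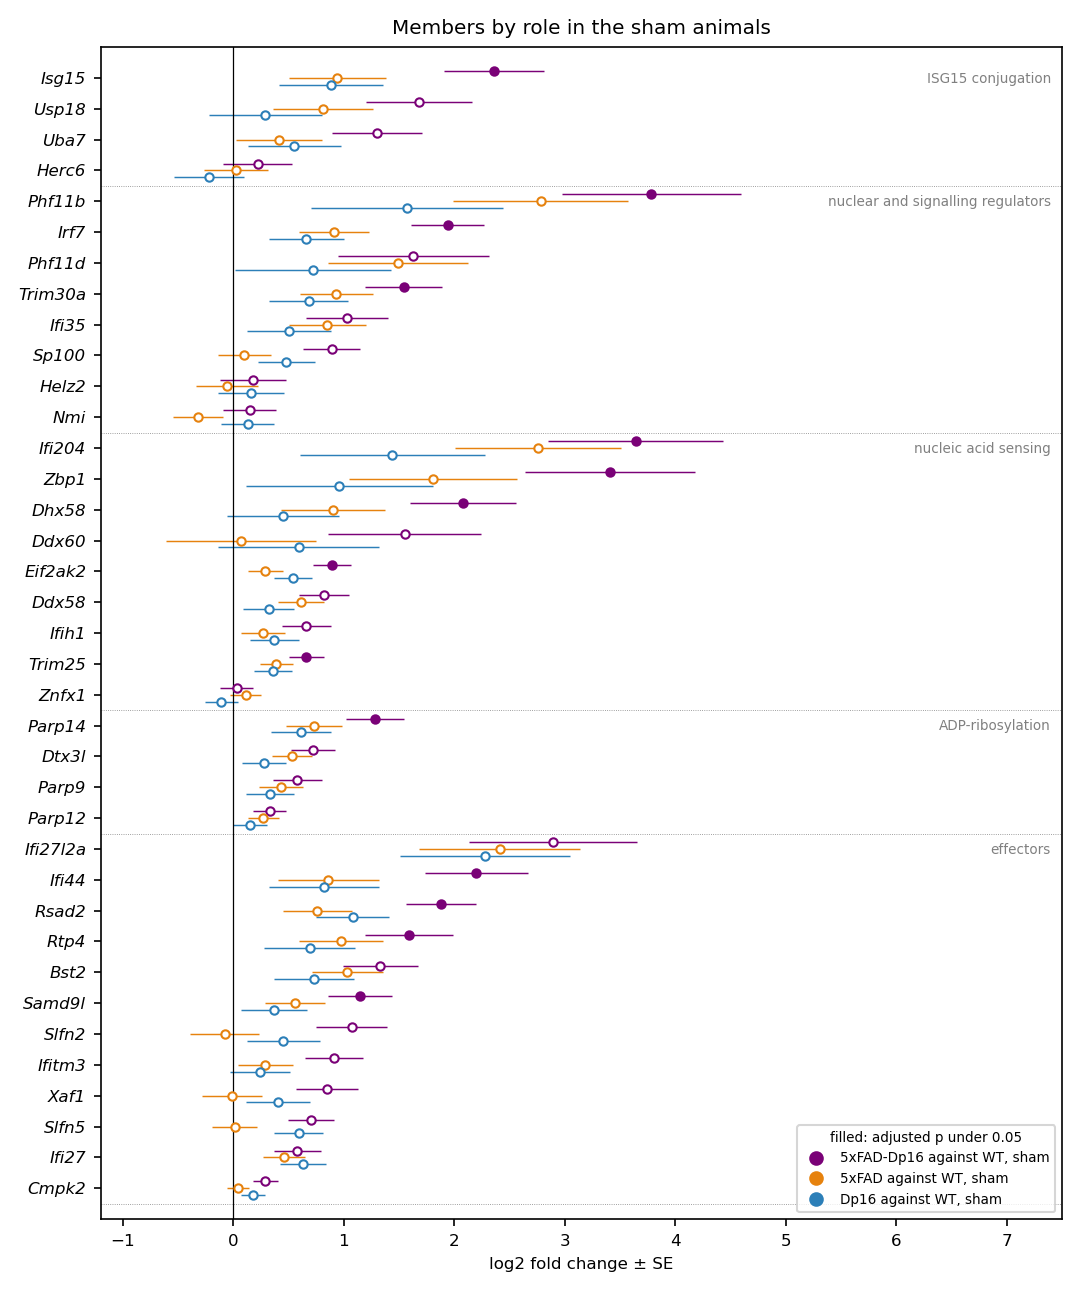
Log2 fold change ± SE of each gene against WT in sham mice, for 5xFAD-Dp16, 5xFAD and Dp16, in 5 role groups; filled points have an adjusted p under 0.05. All 37 values for 5xFAD-Dp16 lie above 0, and only that genotype has filled points, 14 in number.

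Genes of the ISG15 system act by attaching the small ubiquitin-like protein ISG15 to other proteins. Isg15, which encodes that protein (chr4:156199424-156200818, GRCm38), had 3.83, 6.25 and 6.14 CPM in 5xFAD-Dp16 sham mice, 1.34, 2.23, 2.31 and 1.98 CPM in 5xFAD sham mice, 2.96, 1.06 and 1.76 CPM in Dp16 sham mice, and 1.63, 0.899, 0.99, 0.931 and 0.688 CPM in WT sham mice. All 3 animals with both changes were above every other sham animal. Its log2 fold change in 5xFAD-Dp16 over WT was 2.36 ± 0.45 (SE, adjusted p = 0.00437). Usp18, the protease that removes ISG15 and also damps the interferon receptor, had 1.97, 4.08 and 2.74 CPM in 5xFAD-Dp16 sham mice, 1.91, 1.81, 0.923 and 1.07 CPM in 5xFAD sham mice, 2.21, 0.355 and 0.822 CPM in Dp16 sham mice, and 0.624, 1.01, 1.21, 0.876 and 0.438 CPM in WT sham mice. Its 5xFAD-Dp16 and WT animals did not overlap, but Dp16 animal 1 reached into the range of 5xFAD-Dp16. The log2 fold change over WT was 1.68 ± 0.48 and missed the threshold (adjusted p = 0.0873). Uba7, the activating enzyme for ISG15, had a log2 fold change of 1.30, and Herc6, its ligase in mouse, one of 0.22. Neither passed, so that 1 of the 4 genes of this group was called. Part of the Herc6 sequence, 10.3% of its 100-base stretches, also occurs in the overlapping gene model Gm45193.

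Among the nuclear and signalling regulators, 3 of 8 rose in 5xFAD-Dp16 sham mice. Irf7, the transcription factor that amplifies interferon production (chr7:141262706-141266481), had 7.0, 14.7 and 8.39 CPM in 5xFAD-Dp16 sham mice, 3.41, 5.33, 3.23 and 4.64 CPM in 5xFAD sham mice, 6.04, 2.72 and 3.58 CPM in Dp16 sham mice, and 2.93, 2.58, 2.42, 1.59 and 2.44 CPM in WT sham mice. All 5xFAD-Dp16 sham animals lay above all other sham animals, and all 5xFAD sham animals above all WT sham animals. Dp16 and WT overlapped, with Dp16 animal 2 at 2.72 CPM and WT animal 1 at 2.93 CPM. Its log2 fold change in 5xFAD-Dp16 over WT was 1.94 ± 0.33 (adjusted p = 0.00106), with Rsad2 the smallest adjusted p of the 37. Trim30a, a tripartite-motif protein that restrains inflammatory signalling, had 5.9, 6.98 and 4.99 CPM in 5xFAD-Dp16 sham mice, 3.98, 5.07, 3.58 and 2.49 CPM in 5xFAD sham mice, 5.5, 2.66 and 1.7 CPM in Dp16 sham mice, and 1.92, 2.81, 2.59, 0.931 and 1.81 CPM in WT sham mice. It separated 5xFAD-Dp16 from WT but not from either line with 1 change. Its log2 fold change was 1.54 ± 0.35 (adjusted p = 0.0222), and the call was kept in 4 of the 8 fits that left out 1 library. Phf11b, a PHD-finger gene, had the largest fold change of the list, a log2 value of 3.78 ± 0.81 (adjusted p = 0.0136). It averaged 2.24 ± 0.51 CPM in 5xFAD-Dp16 sham mice (SD, n = 3) and 0.142 ± 0.173 CPM in WT sham mice (n = 5). Its WT sham libraries held 0 to 9 counts, so the size of its fold change is imprecise. As 13.8% of its 100-base stretches occur in Phf11d and other copies, reads may be shared among them. Sp100, a component of nuclear bodies, had a log2 fold change of 0.89 and Ifi35 one of 1.03, neither past the threshold.

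Phf11d, a copy of Phf11b, had a log2 fold change of 1.63 ± 0.68 and was not called. Nmi, which binds Stat proteins, had 8.06, 4.81 and 5.87 CPM in 5xFAD-Dp16 sham mice, 4.6, 3.47, 5.82 and 4.13 CPM in 5xFAD sham mice, 6.47, 5.38 and 6.69 CPM in Dp16 sham mice, and 5.57, 5.11, 5.28, 6.4 and 5.76 CPM in WT sham mice. The WT values lay inside the 5xFAD-Dp16 range, and the log2 fold change was 0.15 ± 0.24 (adjusted p = 0.832). Helz2, a helicase, had a log2 fold change of 0.18 ± 0.30 (adjusted p = 0.831).

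Sensors of foreign or misplaced nucleic acid gave 5 calls in 9. Ifi204, a cytosolic DNA sensor of the mouse, had 3.68, 3.75 and 1.59 CPM in 5xFAD-Dp16 sham mice, 1.5, 1.86, 1.15 and 0.792 CPM in 5xFAD sham mice, 1.19, 0.296 and 0.411 CPM in Dp16 sham mice, and 0.048, 0.225, 0.495, 0.219 and 0 CPM in WT sham mice. Both genotypes with the amyloid transgenes lay wholly above WT, and 5xFAD-Dp16 animal 4 fell in the 5xFAD range. Its log2 fold change in 5xFAD-Dp16 over WT was 3.64 ± 0.79 (adjusted p = 0.0145), and 10.7% of its 100-base stretches also occur in Ifi211, Mndal or Ifi207. Eif2ak2, the kinase PKR that halts translation on binding double-stranded RNA, had 10.3, 16.1 and 13.9 CPM in 5xFAD-Dp16 sham mice, 7.8, 10.8, 8.3 and 8.93 CPM in 5xFAD sham mice, 11.7, 11.3 and 8.69 CPM in Dp16 sham mice, and 7.63, 6.85, 8.03, 7.06 and 6.88 CPM in WT sham mice. Here Dp16 as well as 5xFAD-Dp16 animals all exceeded WT. The log2 fold change of 5xFAD-Dp16 over WT was 0.89 ± 0.17 (adjusted p = 0.00464).

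Trim25, the ubiquitin ligase that activates RIG-I, had 13.2, 12.1 and 13.4 CPM in 5xFAD-Dp16 sham mice, 10.1, 10.8, 11.3 and 8.37 CPM in 5xFAD sham mice, 12.8, 11.1 and 7.99 CPM in Dp16 sham mice, and 9.46, 8.03, 8.31, 7.17 and 6.57 CPM in WT sham mice. The 5xFAD-Dp16 animals were close together and above all 5xFAD and WT animals. Over WT the log2 fold change was 0.66 ± 0.16 (adjusted p = 0.0419), and the call was kept in 1 of the 8 fits that left out 1 library. Dhx58, the RIG-I relative LGP2, rose by 2.08 ± 0.48 on the log2 scale (adjusted p = 0.0245), and Zbp1 by 3.41 ± 0.77 (adjusted p = 0.0204). Each kept its call in 4 of those 8 fits. Zbp1 averaged 1.74 ± 0.15 CPM in 5xFAD-Dp16 sham mice (SD, n = 3) and 0.155 ± 0.216 CPM in WT sham mice (n = 5). Its WT sham libraries held 0 to 9 counts, so the size of its fold change is imprecise. Ddx58, which encodes RIG-I itself, and Ifih1, which encodes MDA5, had log2 fold changes of 0.82 and 0.66 and were not called, nor was Ddx60, at 1.55. Znfx1, an RNA helicase of the mitochondrial surface, had 52.5, 73.5 and 54.5 CPM in 5xFAD-Dp16 sham mice, 58.9, 67.5, 61.1 and 60.7 CPM in 5xFAD sham mice, 56.5, 55.7 and 51.3 CPM in Dp16 sham mice, and 68.3, 56.4, 47.9, 54.7 and 63.9 CPM in WT sham mice. All 4 groups overlapped, at a log2 fold change of 0.03 ± 0.15 (adjusted p = 0.955), the lowest of the list.

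The ADP-ribosylation group holds enzymes that tag proteins with ADP-ribose, and 1 of 4 was called. Parp14 had 8.62, 9.94 and 7.73 CPM in 5xFAD-Dp16 sham mice, 4.34, 7.14, 5.42 and 6.05 CPM in 5xFAD sham mice, 7.17, 5.5 and 3.93 CPM in Dp16 sham mice, and 4.94, 3.71, 3.41, 3.23 and 2.38 CPM in WT sham mice. Every animal with both changes was above every other sham animal, and the log2 fold change over WT was 1.28 ± 0.26 (adjusted p = 0.00882). Dtx3l, the ubiquitin ligase that pairs with Parp9, had 10.3, 15.1 and 10.5 CPM in 5xFAD-Dp16 sham mice, 11.7, 9.26, 9.86 and 9.73 CPM in 5xFAD sham mice, 12.1, 7.92 and 6.46 CPM in Dp16 sham mice, and 8.35, 8.88, 6.82, 6.29 and 5.32 CPM in WT sham mice. It separated 5xFAD-Dp16 and 5xFAD from WT, with a log2 fold change of 0.72 ± 0.20 for 5xFAD-Dp16 that missed the threshold (adjusted p = 0.0751). Parp9 and Dtx3l overlap on opposite strands, over 9.4% of the exon bases of Parp9 and 8.0% of those of Dtx3l, and reads there may be shared. Parp9 and Parp12 had log2 fold changes of 0.58 and 0.33 and were not called.

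Effectors act on the virus or its host cell, and 4 of 12 were called. Rsad2, or viperin, which makes a chain-terminating nucleotide (chr12:26442746-26456452), had 5.8, 8.23 and 4.61 CPM in 5xFAD-Dp16 sham mice, 2.84, 2.07, 3.11 and 2.77 CPM in 5xFAD sham mice, 3.45, 3.13 and 3.93 CPM in Dp16 sham mice, and 1.73, 2.25, 1.82, 1.15 and 1.19 CPM in WT sham mice. The 5xFAD-Dp16 animals were highest and the Dp16 animals next, wholly above 5xFAD and WT. In 5xFAD-Dp16 over WT the log2 fold change was 1.88 ± 0.32 (adjusted p = 0.00106). Ifi44, a GTP-binding protein that restrains some viruses, had 1.81, 3.29 and 4.72 CPM in 5xFAD-Dp16 sham mice, 0.672, 1.76, 1.38 and 1.19 CPM in 5xFAD sham mice, 1.72, 0.768 and 1.29 CPM in Dp16 sham mice, and 0.864, 0.843, 0.715, 0.164 and 0.938 CPM in WT sham mice. The lowest animal with both changes was just above the highest 5xFAD animal. The log2 fold change over WT was 2.20 ± 0.47 (adjusted p = 0.0141), but 1.70 without 5xFAD-Dp16 sham 4 (adjusted p = 0.332). Samd9l, a growth-restraining antiviral factor, rose by 1.15 ± 0.29 on the log2 scale, and Rtp4, a chaperone of membrane receptors, by 1.59 ± 0.40 (adjusted p = 0.0425 for each). The call of Samd9l was kept in 1 of the 8 fits that left out 1 library, and that of Rtp4 in 2. Part of the Rtp4 sequence, 9.28% of its 100-base stretches, also occurs in the overlapping gene model Gm45338.

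Other effectors had lower fold changes or a wider spread. Bst2, or tetherin, which holds budding virus at the cell surface, had 7.0, 10.2 and 11 CPM in 5xFAD-Dp16 sham mice, 7.18, 7.45, 6.29 and 7.75 CPM in 5xFAD sham mice, 11, 3.96 and 3.99 CPM in Dp16 sham mice, and 3.46, 3.2, 6.05, 2.3 and 2.88 CPM in WT sham mice. Both amyloid genotypes lay above WT, and Dp16 animal 1 stood far above the other Dp16 animals. The log2 fold change of 1.33 ± 0.34 in 5xFAD-Dp16 missed the threshold (adjusted p = 0.0528). Slfn5, a Schlafen protein, had 13.8, 16.1 and 18.4 CPM in 5xFAD-Dp16 sham mice, 9.72, 9.37, 11.1 and 9.44 CPM in 5xFAD sham mice, 18.8, 15.3 and 10.9 CPM in Dp16 sham mice, and 12.9, 12.8, 7.26, 9.14 and 7.32 CPM in WT sham mice. Its 5xFAD values sat within the WT range and its 5xFAD-Dp16 values within the Dp16 range, with a log2 fold change of 0.70 ± 0.21 over WT (adjusted p = 0.117). Cmpk2, a nucleotide kinase of mitochondria, had 26.1, 28.0 and 30.1 CPM in 5xFAD-Dp16 sham mice, 24.8, 22.5, 23.0 and 23.0 CPM in 5xFAD sham mice, 26.1, 25.6 and 25.8 CPM in Dp16 sham mice, and 21.8, 22.8, 23.2, 22.5 and 23.7 CPM in WT sham mice. Its values were tight, and the small log2 fold change of 0.29 ± 0.11 was not called (adjusted p = 0.213). Ifi27l2a had a large but variable log2 fold change of 2.89 ± 0.76 (adjusted p = 0.0591). Ifitm3, Slfn2, Xaf1 and Ifi27 had log2 fold changes of 0.91, 1.07, 0.85 and 0.58, none past the threshold.

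**Figure D3:**
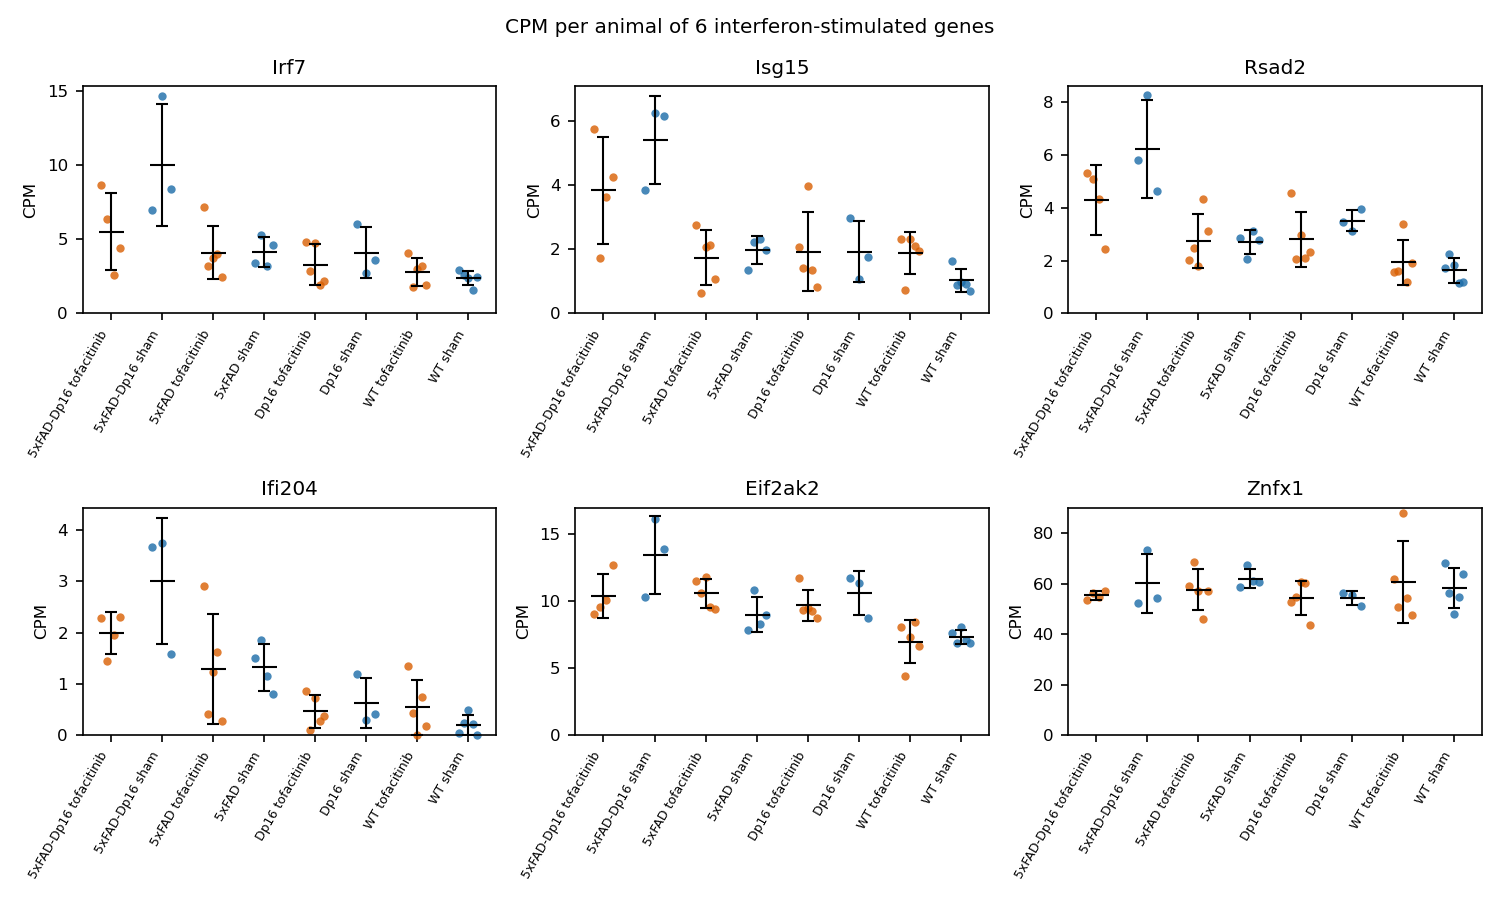
CPM of 6 genes in each animal (points; tofacitinib orange, sham blue) with the mean and SD of each group (bars). The group means of Isg15, Irf7 and Rsad2 are highest in the 5xFAD-Dp16 sham animals, though single tofacitinib animals of that genotype reach into their range. Znfx1 averages 60.2 CPM in 5xFAD-Dp16 sham animals and 58.2 CPM in WT sham animals.

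The number of calls depended on which libraries entered the fit. It was 8 without WT sham 1, without WT sham 4 or without WT sham 5, 7 without 5xFAD-Dp16 sham 4, and 20 without 5xFAD-Dp16 sham 1. Without the 3 libraries low in hippocampal markers, which include 5xFAD-Dp16 sham 4, 8 of the 14 calls were kept and the median log2 fold change was 0.76, still above 0 for all 37 genes. A fit on the 5xFAD-Dp16 and WT sham libraries alone called 0 of the 37, and 0 of all genes tested, at a median log2 fold change of 1.05.

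With 1 change alone, none of the 37 genes passed the test. Between 5xFAD and WT sham mice 33 of 37 fold changes were above 1 (50.5% of all genes), with a median log2 value of 0.53 against 0.00 over all genes. edgeR called 0 of 37, where 0.445% of all genes were called higher, and 19 of 37 had an unadjusted p under 0.05 with higher levels, where 3.48% of all genes did. The DESeq2 Wald test called 2, and edgeR called 1 without the 3 libraries low in hippocampal markers, at a median of 0.52. In 8 of 37 genes all 5xFAD animals lay above all WT animals, as in 1.72% of all genes. The largest log2 fold changes were 2.78 ± 0.79 for Phf11b (adjusted p = 0.185) and 2.76 ± 0.75 for Ifi204 (adjusted p = 0.131).

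Between Dp16 and WT sham mice 35 of 37 fold changes were above 1 (50.9% of all genes), with a median log2 value of 0.50 against 0.01 over all genes. edgeR called 0 of 37, where 0.245% of all genes were called higher, and the DESeq2 Wald test also called 0. An unadjusted p under 0.05 with higher levels was found for 8 of 37, against 3.50% of all genes, and 4 of 37 did not overlap with WT, against 4.62% of all genes. Rsad2 had the smallest p, at a log2 fold change of 1.08 ± 0.33 (adjusted p = 0.282), followed by Eif2ak2 with 0.54 ± 0.17 (adjusted p = 0.339). Without Dp16 sham 1 the median log2 fold change was 0.28, and without the 3 libraries low in hippocampal markers it was 0.46 with 0 called. The Dp16, 5xFAD and 5xFAD-Dp16 comparisons share the same WT sham animals and are not independent.

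With all animals of both treatments, the average effect of each change was tested with more libraries. The amyloid transgenes raised 14 of the 37 genes (1.59% of all genes were called higher) and lowered none, at a median log2 value of 0.43. It left 36 of 37 above 0 (50.7% of all genes) and 27 higher at an unadjusted p under 0.05 (7.47%). The strongest were Ifi204, at 2.12 ± 0.37 (adjusted p = 0.000513), Irf7, at 0.87 ± 0.16 (adjusted p = 0.00123), and Trim30a, at 0.91 ± 0.17 (adjusted p = 0.00133). The others were Usp18, Phf11b, Dhx58, Zbp1, Eif2ak2, Trim25, Dtx3l, Parp14, Rsad2, Bst2 and Ifi27l2a. The segment raised 4 of the 37 (0.902% of all genes were called higher), at a median log2 value of 0.45, with 34 of 37 above 0 (49.1% of all genes) and 25 higher at an unadjusted p under 0.05 (6.68%). These were Rsad2, at 0.82 ± 0.16 (adjusted p = 0.00353), Eif2ak2, at 0.40 ± 0.09 (adjusted p = 0.00861), Slfn2, at 0.62 ± 0.16 (adjusted p = 0.0435), and Trim25, at 0.31 ± 0.08 (adjusted p = 0.0479). Rsad2 and Eif2ak2 were kept in each of the 34 fits that left out 1 library, Trim25 in 12 and Slfn2 in 11. The segment count was 7 without Dp16 sham 3, and 2 without any of WT sham 4 or 5, WT tofacitinib 1, 2 or 5, 5xFAD sham 1, 2 or 4, Dp16 sham 1, Dp16 tofacitinib 1 or 4, 5xFAD-Dp16 sham 4 or 5xFAD-Dp16 tofacitinib 4. The amyloid count was 8 without Dp16 sham 3. Of the amyloid calls, Ifi27l2a was kept in 15 of the 34 fits, Eif2ak2 in 23, Usp18 in 31, and Dhx58, Dtx3l and Parp14 in 33 each, while the other 8 were kept in all. Without the 3 libraries low in hippocampal markers 3 genes were called for the segment, at a median of 0.38, with Trim25 (adjusted p = 0.132) and Slfn2 (adjusted p = 0.122) lost, and 14 for the amyloid transgenes, at a median of 0.40, with Dhx58 (adjusted p = 0.0545) and Eif2ak2 (adjusted p = 0.0613) lost. The DESeq2 Wald test called 12 for the segment, a fit without the sex term 11, and a fit blocked on the replicate number 2. That block gave 10 amyloid calls and lost those of Usp18, Eif2ak2, Dtx3l, Parp14 and Ifi27l2a. The share of all genes called is not given for these alternative fits, so their counts cannot be read as particular to the list.

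Mice with both changes were next set against mice with 1 change. In 5xFAD-Dp16 over 5xFAD sham mice the median log2 fold change was 0.60, with 36 of 37 above 0 (50% of all genes), and in 5xFAD-Dp16 over Dp16 sham mice it was 0.61, also with 36 of 37 above 0 (51.0% of all genes). Over Dp16 the median was 0.86 without Dp16 sham 1, 0.41 without Dp16 sham 2 and 0.35 without 5xFAD-Dp16 sham 4. Leaving out the 3 libraries low in hippocampal markers gave medians of 0.42 over 5xFAD and 0.36 over Dp16, with 0 called in each. edgeR called 0 of 37 in both, where 0.251% and 0% of all genes were called higher, and the DESeq2 Wald test called 0 of 37 in both. Unadjusted p-values under 0.05 with higher levels were found for 15 of 37 over 5xFAD (7.43% of all genes) and 13 of 37 over Dp16 (5.29% of all genes). All 5xFAD-Dp16 animals lay above all 5xFAD animals in 18 of 37 genes (4.52% of all genes) and above all Dp16 animals in 13 of 37 (5.87% of all genes). Slfn2, a Schlafen gene of the immune system, had a log2 fold change of 1.15 ± 0.34 over 5xFAD (adjusted p = 0.198), and Irf7 one of 1.28 ± 0.37 over Dp16 (adjusted p = 0.66).

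Whether the effects of segment and amyloid add was asked on 2 scales. On the log scale, where additive means that the fold changes multiply, the departure had a median of 0.05 in sham mice, with 22 of 37 genes above 0 (49.4% of all genes). edgeR called 0 of 37 (0% of all genes), none had an unadjusted p under 0.05, and the DESeq2 Wald test called 0. With both treatments averaged the median departure was 0.09 and again edgeR and DESeq2 called 0, with 24 of 37 above 0 (49.9% of all genes) and 0% of all genes called. The sign of these medians was not stable. In sham mice the median was 0.36 without Dp16 sham 1, -0.01 without WT sham 2, -0.03 without 5xFAD-Dp16 sham 2 and -0.04 without the 3 libraries low in hippocampal markers. Over both treatments it was between 0.02 and 0.16 with 1 library left out, and -0.05 without those 3. Standard errors were wide, for example 0.54 ± 0.67 for Isg15, 0.37 ± 0.49 for Irf7, 0.05 ± 0.49 for Rsad2 and -1.80 ± 1.08 for Ifi27l2a.

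On the CPM scale, where the increments themselves add, the 5xFAD-Dp16 mean exceeded the sum of the separate increments in 30 of 37 genes in sham mice, against 49.8% of all genes. The median ratio of the 5xFAD-Dp16 mean to that sum was 1.22, and in tofacitinib mice it was 1.17, with 26 of 37 above (48.8% of all genes). Where both increments are positive and fold changes multiply, the mean exceeds the sum, so these counts depend on the scale. Above the product of the fold changes lay 22 of 37 genes in sham mice (49.3% of all genes), at a median ratio of 1.06. In tofacitinib mice 25 of 37 did (48.7% of all genes), at 1.14. The excess over the sum was above 2 SE in 2 of 37 genes in sham mice, near the 3.98% of all genes. Isg15 averaged 5.41 CPM in 5xFAD-Dp16 sham mice, where the sum gave 2.87, an excess of 2.54 ± 1.00 CPM (SE from the spread of the 4 groups). Zbp1 averaged 1.74 CPM, where the sum gave 0.686, an excess of 1.05 ± 0.20 CPM. In tofacitinib mice neither gene passed 2 SE, with an excess of 2.06 ± 1.11 CPM for Isg15 and 0.107 ± 0.258 CPM for Zbp1. There Usp18 and Ifi44 lay above the sum by over 2 SE, at 1.58 ± 0.751 and 0.901 ± 0.433 CPM (1.95% of all genes), and Eif2ak2 below it, at -2.95 ± 1.29 CPM (1.94% of all genes). In sham mice 0 of 37 genes lay below the sum by over 2 SE (3.29% of all genes). Ifi27 was below it but within 2 SE, with 31.4 CPM in 5xFAD-Dp16 sham mice where the sum gave 40.4, an excess of -8.99 ± 6.33 CPM.

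**Figure D4:**
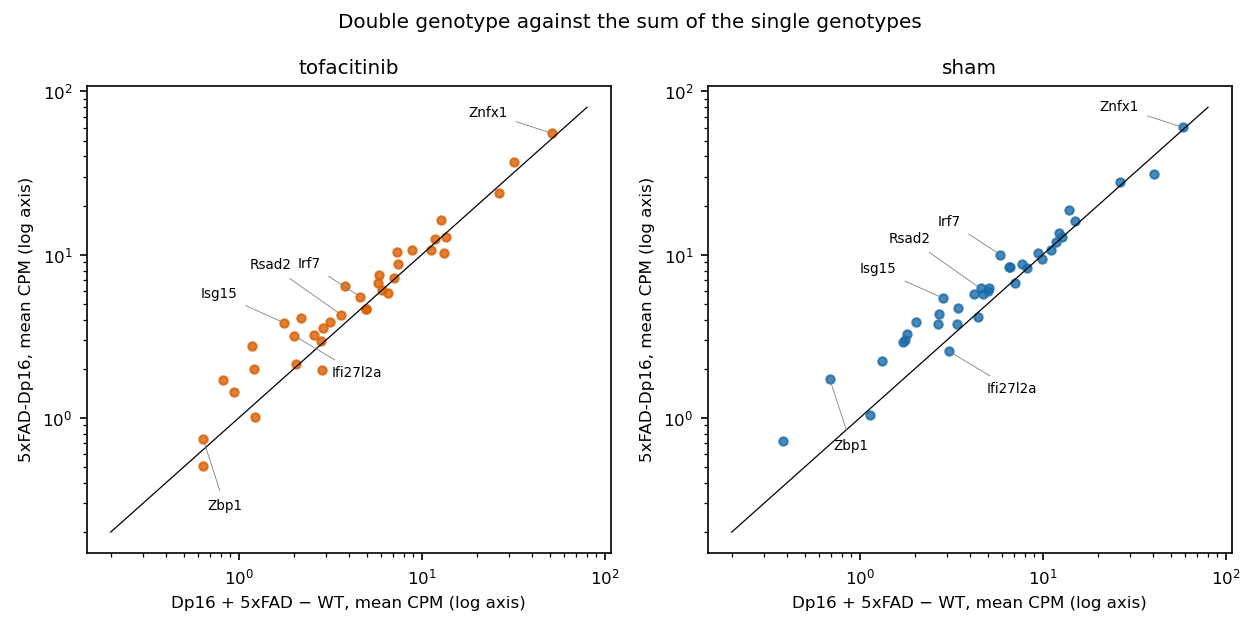
Mean CPM of each gene in 5xFAD-Dp16 mice (vertical, log axis) against the sum of the separate increments, Dp16 plus 5xFAD minus WT (horizontal, log axis), for tofacitinib (left) and sham (right) mice; the line marks equality. In sham mice 30 of 37 genes lie above the line (49.8% of all genes), and in tofacitinib mice 26 do (48.8% of all genes).

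None of the 37 genes passed the threshold between tofacitinib and sham mice in any genotype (edgeR). In 5xFAD-Dp16 mice the median log2 fold change of tofacitinib over sham was -0.27, with 6 of 37 above 0 (49.8% of all genes). edgeR called 0 of 37 (0% of all genes), the DESeq2 Wald test called 0, and 3 of 37 had an unadjusted p under 0.05 with lower levels (4.46% of all genes). The groups did not overlap in 1 of 37 genes with tofacitinib lower, Zbp1, against 2.09% of all genes. The 3 with a p under 0.05 were Irf7, Eif2ak2 and Parp14. Irf7 had 8.66, 6.41, 2.61 and 4.42 CPM in 5xFAD-Dp16 tofacitinib mice, against 7.0, 14.7 and 8.39 CPM in 5xFAD-Dp16 sham mice. Its log2 fold change was -0.83 ± 0.34 (adjusted p = 0.668), with animal 1 on tofacitinib inside the sham range. Eif2ak2 had 9.03, 9.57, 10.1 and 12.7 CPM in 5xFAD-Dp16 tofacitinib mice, against 10.3, 16.1 and 13.9 CPM on sham, a log2 fold change of -0.39 ± 0.18 (adjusted p = 0.668). Parp14 had 4.99, 7.99, 3.26 and 6.95 CPM on tofacitinib, against 8.62, 9.94 and 7.73 CPM on sham, a log2 fold change of -0.58 ± 0.27 (adjusted p = 0.668). For both genes 1 or more treated animals lay within the sham range.

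These medians depended on single libraries. Without 5xFAD-Dp16 sham 4 the median log2 fold change in 5xFAD-Dp16 mice was -0.15, and without the 3 libraries low in hippocampal markers it was -0.13, each with 12 of 37 above 0. In the other genotypes the medians were -0.08 in 5xFAD, -0.15 in Dp16 and 0.14 in WT mice. In 5xFAD mice the median was 0.03 without 5xFAD tofacitinib 2, -0.02 without 5xFAD sham 2, -0.04 without 5xFAD tofacitinib 6, and between -0.12 and -0.06 without any of the others. In Dp16 mice it was 0.03 without Dp16 sham 1, -0.25 without Dp16 sham 2, and between -0.22 and -0.10 without any of the others. In WT mice it was 0.02 without WT tofacitinib 3, 0.08 without WT sham 5, and between 0.10 and 0.21 without any of the others. Without the 3 libraries low in hippocampal markers the medians were 0.01 in 5xFAD, -0.14 in Dp16 and 0.01 in WT mice. edgeR and the DESeq2 Wald test called 0 of 37 in each (0% of all genes called in either direction by edgeR in 5xFAD and WT, and 0.00571% lower in Dp16). An unadjusted p under 0.05 was found for Nmi in 5xFAD mice, at 0.46 ± 0.23 (adjusted p = 0.788; 3.64% of all genes), for Isg15 in WT mice, at 0.87 ± 0.42 (adjusted p = 1; 1.71% of all genes), and for 0 genes in Dp16 mice. Averaged over the 4 genotypes the median was -0.07, with 7 of 37 above 0 (51.4% of all genes) and 0 calls by either tool, 0 with an unadjusted p under 0.05 (edgeR). That median was -0.01 without Dp16 sham 1 and -0.05 without the 3 libraries low in hippocampal markers.

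The response to tofacitinib was then compared between mice with and without the segment. The difference, averaged over amyloid status, had a median log2 value of -0.30, with 4 of 37 above 0 (48.5% of all genes). edgeR called 0 of 37 (0% of all genes), the DESeq2 Wald test called 0, and 4 of 37 had an unadjusted p under 0.05 with a lower response (4.26% of all genes). These were Slfn5, at -0.49 ± 0.21, Ifi44, at -1.02 ± 0.47 (adjusted p = 0.754 for each), Cmpk2, at -0.23 ± 0.11, and Eif2ak2, at -0.35 ± 0.17 (adjusted p = 0.76 for each). Slfn5 had 11.5, 10.9, 17.2 and 11.6 CPM in 5xFAD-Dp16 tofacitinib mice, against 13.8, 16.1 and 18.4 CPM on sham, and the groups overlapped. Ifi44 had 2.23, 1.91, 1.63 and 1.12 CPM in 5xFAD-Dp16 tofacitinib mice, against 1.81, 3.29 and 4.72 CPM on sham, again with overlap. Cmpk2 had 27.0, 20.9, 22.7 and 24.9 CPM on tofacitinib in that genotype, against 26.1, 28.0 and 30.1 CPM on sham. The median difference was -0.14 without Dp16 sham 1, -0.20 without 5xFAD-Dp16 sham 4, and -0.14 without the 3 libraries low in hippocampal markers.

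**Figure D5:**
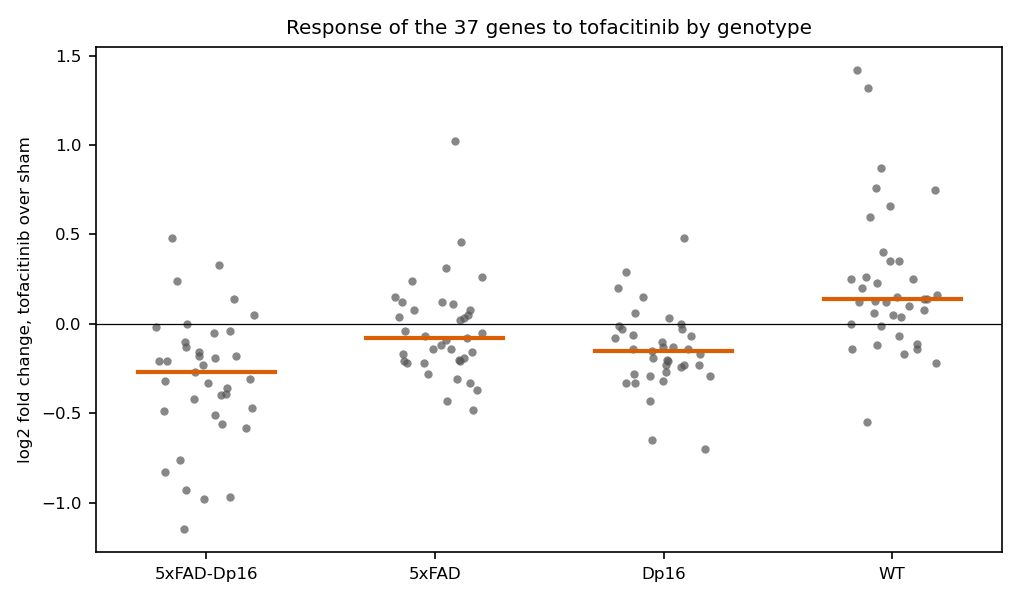
Log2 fold change of tofacitinib over sham for each of the 37 genes (points) in each genotype, with the median (bar). Medians are -0.27 in 5xFAD-Dp16, -0.08 in 5xFAD, -0.15 in Dp16 and 0.14 in WT mice, and no gene passed the threshold; with 1 library left out the median reached 0.03 in 5xFAD, 0.03 in Dp16 and 0.02 in WT mice.

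Mice on tofacitinib were also compared between genotypes. Between 5xFAD-Dp16 and WT tofacitinib mice 2 of 37 genes rose (0.525% of all genes were called higher), with a median log2 fold change of 0.67 and 34 of 37 above 0 (49.2% of all genes). An unadjusted p under 0.05 with higher levels was found for 23 (3.90% of all genes). For 9 of 37 genes the groups did not overlap, against 1.94% of all genes. Trim25 had 11.6, 12.1, 13.4 and 12.5 CPM in 5xFAD-Dp16 tofacitinib mice, against 7.16, 7.4, 5.21, 8.36 and 6.86 CPM in WT tofacitinib mice. The animals were fully apart, at a log2 fold change of 0.81 ± 0.15 (adjusted p = 0.00356) that was called with each of the 9 libraries left out in turn. Bst2 had 15.3, 11.6, 9.55 and 5.01 CPM in 5xFAD-Dp16 tofacitinib mice, against 3.46, 3.08, 3.15, 7.11 and 2.46 CPM in WT tofacitinib mice. These overlapped, and the log2 fold change of 1.35 ± 0.32 (adjusted p = 0.045) kept its call in 2 of 9 such fits. Without the 3 libraries low in hippocampal markers 2 genes were called, at a median of 0.73, Trim25 among them (adjusted p = 0.0141) and Bst2 not (adjusted p = 0.0953). Isg15 had 5.73, 1.72, 3.64 and 4.24 CPM in 5xFAD-Dp16 tofacitinib mice, against 2.31, 0.74, 2.33, 2.1 and 1.94 CPM in WT tofacitinib mice, at a log2 fold change of 1.01 ± 0.42 (adjusted p = 0.57). The count was 1 without any of WT tofacitinib 1, 2 or 5 or 5xFAD-Dp16 tofacitinib 1, 2 or 3, 6 by the DESeq2 Wald test, 1 when the replicate number was a block, and 0 in a fit on the 2 groups alone. Dp16 and 5xFAD tofacitinib mice had median log2 fold changes of 0.19 and 0.29 over WT tofacitinib mice, and edgeR called 0 of 37 in each (0.257% and 0.308% of all genes called higher), with 4 and 7 of 37 higher at an unadjusted p under 0.05 (2.51% and 4.66% of all genes) and 0 and 1 called by the DESeq2 Wald test. On tofacitinib the medians of 5xFAD-Dp16 over 5xFAD and over Dp16 mice were 0.34 and 0.42, and edgeR called 0 of 37 in each (0.206% and 0.0285% of all genes called higher), as did the DESeq2 Wald test. In these, 7 and 14 of 37 were higher at an unadjusted p under 0.05 (2.19% and 1.96% of all genes). With the 3 libraries low in hippocampal markers left out, the medians were 0.25 over 5xFAD and 0.42 over Dp16, and those of Dp16 and 5xFAD over WT were 0.22 and 0.43, with 0 called in each.

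The ligands that start this pathway were at or near the detection limit. Of 21 interferon genes in the files, 20 had 0 counts in all 34 libraries, and Ifng had 8 counts over 4 libraries. A count of 0 allows a level of up to 0.201 CPM in the shallowest library and 0.142 CPM in the deepest, counting error only. None of the 21 could be tested.

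Of the receptor chains, Ifnar1, Ifnar2, Il10rb and Ifngr2 lie in the segment. Ifnar1 ranged from 54.4 to 59.5 CPM in 5xFAD-Dp16 sham mice, from 35.8 to 39.7 CPM in 5xFAD sham mice, from 58.3 to 61.1 CPM in Dp16 sham mice and from 31.9 to 39.7 CPM in WT sham mice. For Ifnar1 both genotypes with the segment were wholly above both without it, with a log2 fold change over WT of 0.72 ± 0.09 in 5xFAD-Dp16 (adjusted p = 1.33e-05) and 0.79 ± 0.09 in Dp16 (adjusted p = 7.35e-06). Of the 5 receptor chains tested, Ifnar1 and Ifnar2 rose in Dp16 sham mice and these and Il10rb rose in 5xFAD-Dp16 sham mice, while 0 of 5 passed in 5xFAD. Ifngr2, a chain of the type II interferon receptor, passed in neither, at 0.35 ± 0.17 in 5xFAD-Dp16 (adjusted p = 0.356) and 0.54 ± 0.17 in Dp16 (adjusted p = 0.346) over WT sham mice. Its lowest 5xFAD-Dp16 sham animal had 64.1 CPM, below the WT sham minimum of 67.5 CPM. For the segment over all animals 4 of the 5 chains tested were called higher. Among tofacitinib mice 4 of 5 were called in Dp16 over WT, and 3 of 5 in 5xFAD-Dp16 over WT. Among the transducers, Irf9, the DNA-binding partner in the complex that type I interferon activates, rose in 5xFAD-Dp16 sham mice, at a log2 fold change over WT of 0.84 ± 0.19 (adjusted p = 0.0177). The kinases Jak1, Jak2, Jak3 and Tyk2 had log2 fold changes between 0.07 and 0.25 in 5xFAD-Dp16 over WT sham mice, and none of these 4 passed. Of the 14 genes listed upstream of interferon production, Irf8, a transcription factor of microglia, rose in 5xFAD sham mice, at 1.25 ± 0.24 (adjusted p = 0.00669), and 0 passed in 5xFAD-Dp16 or Dp16.

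Markers of other cell types were measured beside the list. The summed level of 4 markers of plaque-associated microglia (Cst7, Itgax, Clec7a and Ccl6) ranged from 9.32 to 40.4 CPM in 5xFAD-Dp16 sham mice, 13.9 to 104 CPM in 5xFAD sham mice, 2.52 to 4.42 CPM in Dp16 sham mice and 2.4 to 4.05 CPM in WT sham mice. All 4 rose in 5xFAD and 3 of 4 in 5xFAD-Dp16 over WT, and between 5xFAD-Dp16 and 5xFAD their median log2 fold change was -1.36 with 0 of 4 called. The 8 microglial markers summed to 386 to 651 CPM in 5xFAD-Dp16, 492 to 984 CPM in 5xFAD, 405 to 487 CPM in Dp16 and 414 to 488 CPM in WT sham mice, and 3 of 8 rose in 5xFAD, against 0 of 8 in each of the others. Choroid plexus markers (6 genes) summed to 68 to 2250 CPM in 5xFAD-Dp16, 31.6 to 4680 CPM in 5xFAD, 879 to 2720 CPM in Dp16 and 22.1 to 3850 CPM in WT sham mice, and 0 of 6 were called. The library lowest in plaque-associated markers among 5xFAD-Dp16 sham mice, animal 4 at 9.32 CPM, had a list level of 2.74, close to the highest. That library is also low in hippocampal markers, at 293 CPM, with 703 CPM of thalamic and 386 CPM of microglial markers. Whether its tissue content bears on either value was not tested. The 6 lymphocyte markers summed to 0.658 to 1.86 CPM in 5xFAD-Dp16, 0.404 to 0.961 CPM in 5xFAD, 0.118 to 1.76 CPM in Dp16 and 0.0547 to 0.25 CPM in WT sham mice, so that 5xFAD-Dp16 and WT did not overlap, and 5 of the 6 had too few counts to test. The 6 markers of border macrophages and monocytes summed to 23.3 to 41 CPM in 5xFAD-Dp16, 15.6 to 39.3 CPM in 5xFAD, 15.8 to 27.2 CPM in Dp16 and 11.9 to 23.2 CPM in WT sham mice, again without overlap between 5xFAD-Dp16 and WT, and 0 of 5 tested were called. The 4 fibroblast markers had a median log2 fold change of 0.68 in 5xFAD-Dp16 over WT sham mice, all above 0 and 0 called, with sums of 51.7 to 139 CPM in 5xFAD-Dp16 and 48.2 to 96.9 CPM in WT. No marker of the cell type lists was at 0 in all libraries. The part of these cell types and of neighbouring regions in the levels of the 37 genes was not tested.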

How the data were processed

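Poly(A) RNA of 34 hippocampi was sequenced from strand-specific libraries, per the labels' protocols. Per the submitters' processing notes, the tools included HTSeq 0.6.1 and HISAT2 2.1.0, with SAMtools 1.5, on build GRCm38, and FastQC 0.11.5 and bcl2fastq were also listed. No strand setting of the counting is given in these sources. The deposited counts are whole read counts per gene, not normalized. The deposited RPKM values are the authors' counts per length and library total, checked against the counts over 14274 genes. Gene names come from GENCODE release 24, and positions from release 21 of the same build. The 37 genes, the lists and the tests were chosen with earlier results of these data known.

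Counts were tested with edgeR 4.0.16 (R 4.3.3, limma 3.58.1): TMM scaling, a filter on low counts by group, 8 group means and a sex term over all 34 libraries (25 residual degrees of freedom, median prior 5.84), the robust quasi-likelihood test, and Benjamini-Hochberg adjustment over 17518 genes with a threshold of 0.05. The test was tried on simulated data. CPM used TMM-scaled library sizes, and log2 CPM a prior count of 2. RPKM served only to compare levels between genes. Libraries held 14.9 to 21.1 M counts. Alternatives were DESeq2 1.42.0, other size factors, no count filter, no sex term, a fit blocked on replicate number, the compared groups alone, and each library left out. Replicates are separate samples by their labels; nothing says whether they are separate litters, so p-values measure the spread between these samples. The series text gives 6 tofacitinib 5xFAD and 4 sham 5xFAD-Dp16 mice, of which 5 and 3 were used, and 1 of each was not analysed here.

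Values in every sample were given for the 2 genes of each role group with the smallest p in 5xFAD-Dp16 against WT sham mice among genes of at least 1 CPM on average, for genes past the threshold in a tofacitinib or interaction comparison or, failing these, the 3 with the smallest p, and for the 2 genes with the lowest fold change. Other called genes were named after their values were seen. Replicate numbers were not taken as pairs: same-numbered samples correlated between -0.48 and 0.40 in their deviations from the group means. The result of 1 gene of the pathway lists is not reported here.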

Additional observations from a re-analysis of the deposited data

Results flagged for a closer look

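In 4 of 102 sets of values, 1 gene in 1 group each, a single animal lay far from the others of its group on the log2 CPM scale; chance gives about 1 in 20 such groups. Isg15 in WT tofacitinib 2 was at -0.23, where the other 4 were between 1.04 and 1.29. Eif2ak2 in Dp16 tofacitinib 1 was at 3.56, where the others were between 3.15 and 3.26. Slfn5 in 5xFAD-Dp16 tofacitinib 3 was at 4.11, where the others were between 3.46 and 3.55. Ifi44 in WT sham 4 was at -1.86, where the others were between -0.28 and 0.07, and without that animal the log2 fold change of Ifi44 in 5xFAD-Dp16 over WT sham mice was 1.94 (adjusted p = 0.0468, edgeR).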

How the results depend on the processing

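No called gene changed sign under any alternative run, but medians of the list near 0 did. With 1 library left out, the median departure from additivity in sham mice ranged from -0.03 to 0.36, and the median of tofacitinib over sham from -0.25 to 0.03 in Dp16 and from -0.12 to 0.03 in 5xFAD mice. Of 246 recomputed values in the main comparisons, nearly all counts of called genes, 223 stayed the same and 23 did not. A count was taken as the same within 1.5 times the reported count. Most main comparisons had a reported count of 0, which a recomputed 0 matched, so the 223 say little about the counts above 0. Without the filter on low counts, the genes called were 24 in 5xFAD-Dp16, 4 in 5xFAD and 2 in Dp16 over WT sham mice, 3 in 5xFAD-Dp16 over 5xFAD and 3 over Dp16 sham mice, and 10 in 5xFAD-Dp16 over WT tofacitinib mice; the cause was not tested. The DESeq2 Wald test called 2 in 5xFAD over WT sham mice and 6 in 5xFAD-Dp16 over WT tofacitinib mice. For the fit without the filter and for DESeq2 the share of all genes called is not given here. These counts therefore cannot be read as particular to the list. Without the 3 libraries low in hippocampal markers, an alternative added with results known, 8 were called in 5xFAD-Dp16 and 1 in 5xFAD over WT sham mice. The compared groups alone, a fit with fewer samples, gave 0 in 5xFAD-Dp16 over WT on sham and 0 on tofacitinib. Leaving out 1 library gave 7 to 20 calls in 5xFAD-Dp16 over WT sham mice, 1 to 3 in 5xFAD-Dp16 over WT tofacitinib mice, and 0 in the other main comparisons. With the replicate number as a block, 12 genes were called in 5xFAD-Dp16 over WT sham mice and 1 in 5xFAD-Dp16 over WT tofacitinib mice, and the block left the other main comparisons at 0. Among other results, 971 of 1156 recomputed values kept their call, 161 lost it and 24 counts moved. Groups of 3 to 5 animals and genes near 1 CPM limit the precision.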
